A study of Caenorhabditis elegans with 4 samples.

Results

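RNA polymerase III (Pol III) peaks that lie close together along the worm genome are described here. They were chosen by the positions of the deposited peaks: neighbouring peaks on a chromosome were joined when the gap from the end of 1 to the start of the next was at most 5000 bp, and every peak in a joined run of 3 or more is a member. The rule found 358 of 2173 peaks in the series-wide list, or 16.5% (95% Wilson interval 15.0 to 18.1), in 96 runs. The other 1815 peaks comprised 488 in 244 joined pairs and 1327 that stood alone.

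The peaks come from chromatin immunoprecipitation sequencing (ChIP-seq) of RPC-1, the largest subunit of Pol III, in Caenorhabditis elegans. All samples were wild-type N2 hermaphrodites, the standard laboratory strain, collected as young adults after growth at 20 °C and crosslinked with 2% formaldehyde. The study holds 2 ChIP libraries, each with an input library of unselected chromatin from sonicated whole worms. The deposited peak lists hold 1009 peaks for ChIP replicate 1, 2041 for replicate 2 and 2173 series-wide.

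No transgene is named in the strain labels, and the protocol text names no antibody against RPC-1. Whole animals were pooled, so a peak cannot be assigned to a tissue. Nothing in the labels says that the replicates came from separate cultures. How the series-wide list was made is not given, and it may rest on the same reads as the replicate lists. Depth is unknown because the lists hold no read counts, so a peak that was not called is not shown to lack Pol III.

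Pol III transcribes short non-coding RNA genes, among them those of tRNAs, 5S ribosomal RNA and U6 small nuclear RNA. A tRNA gene carries its promoter within the transcribed part, where the factor TFIIIC binds and brings in TFIIIB, which in turn recruits the polymerase. Each such gene is short and is transcribed from its own start, so neighbouring genes can each carry polymerase.

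Peaks are given as ranks within a list, ordered by the value the authors' caller wrote for each peak, where rank 1 is the smallest value. These ranks are the authors' peak values turned into an order, and they are read only within a list. Equal values were ordered by chromosome and start. A value of 0 was shared by 7 series-wide peaks and by 5 of replicate 2, so ranks among these peaks follow position. Quintiles divide the series-wide list into 5 groups of ranks, with quintile 1 the best ranked. Shares carry 95% Wilson intervals and differences between shares carry 95% Newcombe intervals. Both cover counting error only, and peaks of a run are neighbours and not independent, so the intervals are too narrow and no p-value is given.

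Runs were mostly short. Of the 96 runs, 59 held 3 peaks, 24 held 4, 6 held 5, 3 held 6 and 2 held 7, and 1 run each held 10 and 13. A run spanned between 1033 and 14185 bp, with a median of 5833 bp. Together the runs spanned 581 kb, or 0.580% of the 100.15 Mb between the chromosome starts and the last peaks. Peaks covered 27.9% of the run length.

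**Figure D1:**
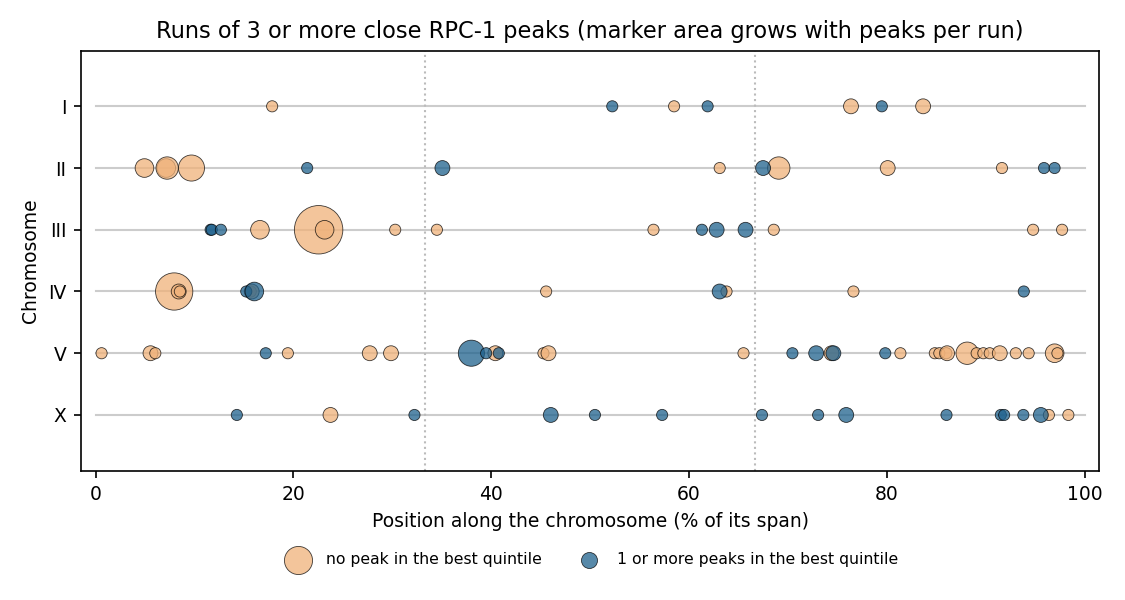
Position of the 96 runs on each chromosome (horizontal axis, percent of the chromosome's span), with marker area growing with the number of peaks, colour showing whether a run holds a peak of the best quintile, and dotted lines dividing the span into 3 equal parts. Chromosome V held 33 runs, chromosome X 16 and chromosome I 7.

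Members were spread unevenly over the chromosomes. Chromosome V held 118 members in 33 runs, or 33.0% of all members (28.3 to 38.0), against 18.2% of the other peaks (16.5 to 20.1). That is a difference of 14.72 percentage points (9.71 to 20.03). Chromosome X held 52 members in 16 runs, or 14.5% against 20.9% of the other peaks, a difference of -6.41 points (-10.21 to -2.00). Chromosome I was also lower among members, with 6.42% against 12.6%, a difference of -6.14 points (-8.78 to -2.78). Chromosome IV held 13.4% of members and 18.0% of the other peaks, chromosome II 15.6% and 13.3%, and chromosome III 17.0% of each.

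Read the other way, 26.3% of the peaks on V (22.4 to 30.5) were in runs, and 12.0% of the peaks on X (9.30 to 15.4). The lowest share was on I, with 23 of 251 peaks or 9.16%. Per Mb there were 5.66 members on V, 4.43 on III, 3.67 on II, 2.94 on X, 2.75 on IV and 1.53 on I. Joined pairs did not follow the same order as runs. Of the peaks in pairs, 13.9% lay on V and 23.4% on X, while the single peaks gave 19.8% and 20.0%.

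Rank separated peaks on X from those on V, among members and other peaks alike. Among members in quintile 1, 39.7% lay on X (27 of 68) and 17.6% on V (12 of 68), while the other peaks of that quintile had 42.2% on X and 10.6% on V. In quintiles 2 and 3 the shares on V were 26.1% and 26.7% of members, against 19.1% and 16.4% of the other peaks. These differences were 6.96 points (-2.94 to 18.97) and 10.36 points (1.12 to 21.16). Among members in quintile 4, 47.6% lay on V (39 of 82, 37.1 to 58.2) against 22.4% of the other peaks, a difference of 25.18 points (13.75 to 36.59). In quintile 5 the share on V was 49.1% (26 of 53) against 22.6%, a difference of 26.48 points (12.80 to 40.12). Quintile 1 held 51.9% of the members on X and 10.2% of those on V.

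The median rank was 424.5 for the members on X and 1344.5 for those on V, beside 645 and 1298 for the other peaks of the same chromosomes. Of the 16 runs on X, 13 held a quintile 1 peak, and of the 33 on V, 8 did. The higher share on V was not seen when runs were rebuilt from better ranked peaks alone, though fewer peaks remained. With only the best 50% of the list kept and the neighbours joined again, there were 105 peaks in 29 runs. Of these 13.3% lay on V, with an interval (8.11 to 21.1) that holds the 17.4% of the others. On X the same step gave 24.8% against 27.9%. The difference was also small when pairs counted as runs. With runs of 2 or more peaks, 22.0% of members lay on V (19.3 to 24.9) against 19.8% of the others (17.8 to 22.0). On X the shares were then 19.6% and 20.0%.

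**Figure D2:**
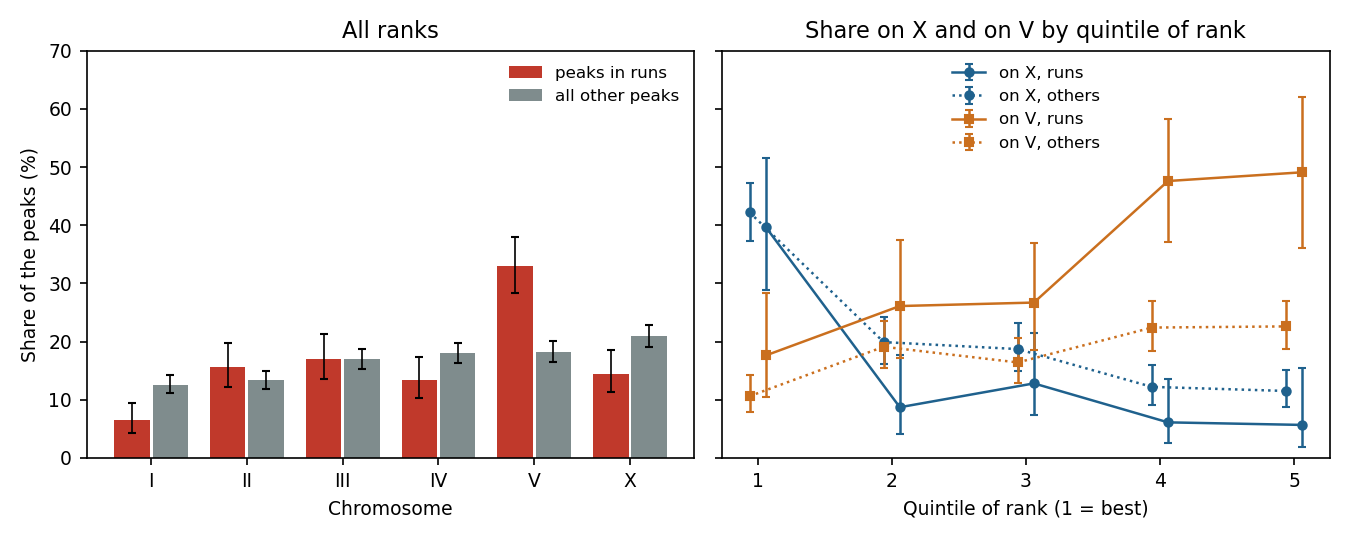
Share of peaks (vertical axis, percent) on each chromosome for peaks in runs and all other peaks on the left, and the shares on X and V by quintile of rank on the right, with bars giving 95% Wilson intervals. In quintile 4 the share on V is 47.6% for peaks in runs and 22.4% for the others.

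The joining rule was also applied to each replicate list on its own. Replicate 2 gave 319 peaks in 87 runs, or 15.6% of its list, with 31.0% of them on V and 12.9% on X. Replicate 1 gave 99 peaks in 27 runs, or 9.81% of its shorter list, with 14.1% on V and 30.3% on X. Of the peaks on V, 22.6% were in runs in replicate 2 (99 of 438, 18.9 to 26.7), above the share over its whole list. In replicate 1 the share was 8.86% (14 of 158, in 4 runs), with an interval of 5.35 to 14.3 that holds its whole-list share. The higher share on V was thus seen in replicate 2 and not in replicate 1. The series-wide difference on V was largest in quintiles 4 and 5. Peaks of replicate 1 overlapped 1.22% and 0% of the members there, beside 9.35% and 0.525% of the other peaks. Whether these few calls bear on the share on V in replicate 1 was not tested.

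A smaller share of members than of other peaks lay in the middle of the chromosomes. The span of a chromosome was cut into 3 equal parts, taking as its end the last peak in any list. The first part held 36.3% of members (130), the middle 22.3% (80) and the last 41.3% (148), against 30.4%, 32.0% and 37.6% of the other peaks. The middle part differed by -9.61 points (-14.17 to -4.55).

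The end that held most members differed between chromosomes. On IV, 66.7% of members lay in the first part against 31.3% of the other peaks, and on III 57.4% against 35.1%. On V, 56.8% lay in the last part against 42.6%, and on X 61.5% against 40.5%. On II only 12.5% lay in the middle, against 37.6% of the other peaks. On I, with 23 members, 39.1% lay in the middle (22.2 to 59.2), beside 36.0% of its other peaks. Of the 13 runs of 5 or more peaks, 9 lay in the first part of their chromosome.

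Over all ranks, the intervals of members and other peaks overlapped for both median rank and median width. The median rank was 1071.5 for members (95% interval 965 to 1170) and 1095 for the other peaks (1036 to 1143). The median width was 375 bp (354 to 417) against 362 bp (349 to 375). Quintiles 1 to 5 held 68, 69, 86, 82 and 53 members, so the worst ranked quintile held 14.8% of members against 21.0% of the other peaks. That is a difference of -6.19 points (-10.02 to -1.75).

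Width followed rank in both classes. From quintile 1 to 5 the median width of members was 652, 483, 352.5, 240.5 and 186 bp, and that of the other peaks 636, 450, 324, 239 and 198 bp. Very narrow peaks, under 50 bp, made up 1.40% of members and 3.42% of the other peaks. Peaks of 1000 bp or more made up 5.59% and 3.53%.

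Gaps between neighbours in a run ranged from 205 to 4883 bp over 262 gaps, with quartiles of 604.2, 1165.5 and 2339.5 bp. The 244 gaps within pairs had a median of 1832 bp. Over all 2167 gaps of the list the median was 23786 bp. The median gap within runs was 1199.5 bp when the rule was applied to replicate 1 and 1135 bp for replicate 2.

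The 5000 bp limit did not fall at a break in the gaps. The list held 87 gaps of under 500 bp, 105 of 500 to 1000 bp and 112 of 1000 to 2000 bp. Each further 1000 bp held 93, 64 and 45 gaps up to the limit, and 55, 43, 36, 28 and 35 beyond it, up to 10000 bp. The 3 gaps just inside the limit measured 4905, 4934 and 4934 bp, and all 3 joined pairs on IV. The 3 just outside measured 5012 bp between III:7953634-7953974 and III:7958986-7959352, 5054 bp between IV:1478710-1478989 and IV:1484043-1484265, and 5065 bp between IV:6551305-6551523 and IV:6556588-6557252.

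**Figure D3:**
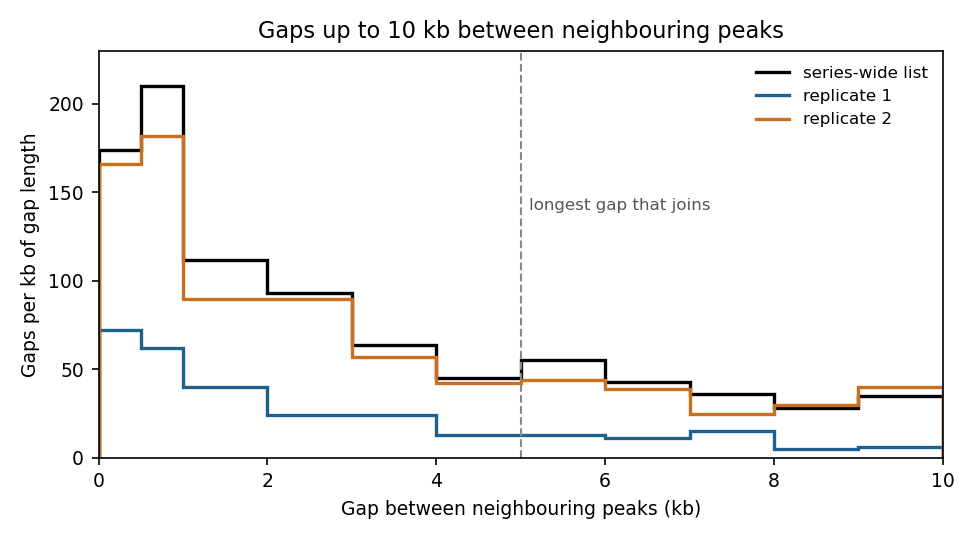
Gaps between neighbouring peaks per kb of gap length (vertical axis) against gap length in kb (horizontal axis) for the series-wide list and both replicates, with the longest gap that joins peaks marked. In the series-wide list the count goes from 93 gaps at 2 to 3 kb to 45 at 4 to 5 kb and is 55 at 5 to 6 kb.

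Neighbours less than 5000 bp apart had more similar ranks than neighbours farther apart. The median difference in rank between neighbours was 387.5 within runs (262 neighbours) and 376.5 within pairs (244). It was 504 for gaps of 5000 to 20000 bp (479) and 595 for longer gaps (1182).

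Members were then set against the replicate lists, where any overlap of at least 1 bp counted as called. In replicate 1, 150 members (41.9%) were called, beside 45.5% of all series-wide peaks and 46.2% of the other peaks. The difference from the other peaks was -4.33 points, with an interval that spans 0 (-9.83 to 1.33). In replicate 2, 311 members (86.9%) were called, beside 79.8% of all peaks and 78.4% of the others, a difference of 8.47 points (4.17 to 12.14). By chromosome the interval of this difference lay above 0 on II (94.6% against 74.0%) and IV (91.7% against 77.0%). It spanned 0 on I, III, V and X, and on I the shares were 73.9% and 74.1%.

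Both replicates called 146 members (40.8%), beside 42.3% of all peaks and 42.6% of the others, a difference of -1.81 points (-7.28 to 3.83). Neither replicate called 43 members (12.0%), beside 17.0% of all peaks and 18.0% of the others, a difference of -5.95 points (-9.44 to -1.81). By run size the share was 13.0% in 3-peak runs, 17.7% in 4-peak runs and 3.53% in runs of 5 or more (3 of 85). By chromosome the interval of the difference lay below 0 on II (1.79% against 20.7%) and IV (6.25% against 18.7%) only. On I the shares were 26.1% and 21.5%. Members called in replicate 2 only were 165 (46.1%), against 35.8% of the others, and 4 members (1.12%) were called in replicate 1 only, against 3.64%.

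Calls became fewer with rank among members and other peaks alike. All quintile 1 members were called in both replicates, beside 99.7% of the other peaks of that quintile. In replicate 2 the calls among members went from 98.6% in quintile 2 to 96.5%, 76.8% and 54.7% in quintiles 3 to 5, against 100%, 89.9%, 67.4% and 36.5% for the other peaks. The quintile 5 difference was 18.23 points (4.08 to 31.70). In replicate 1 the calls among members were 87.0% in quintile 2, 24.4% in quintile 3 and 1.22% in quintile 4, against 88.5%, 32.8% and 9.35% for the other peaks. The quintile 4 difference was -8.13 points (-11.76 to -2.16). None of the 53 members in quintile 5 was called in replicate 1, beside 0.525% of the other peaks (2 of 381).

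For members called in both replicates, the ranks of the replicates followed each other closely. Spearman's rho was 0.947 over 146 members and 0.957 over 773 other peaks, given as a description across peaks that share the same libraries. The replicate lists differ in length, 1009 against 2041 peaks, and the part of that difference in these counts was not tested.

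**Figure D4:**
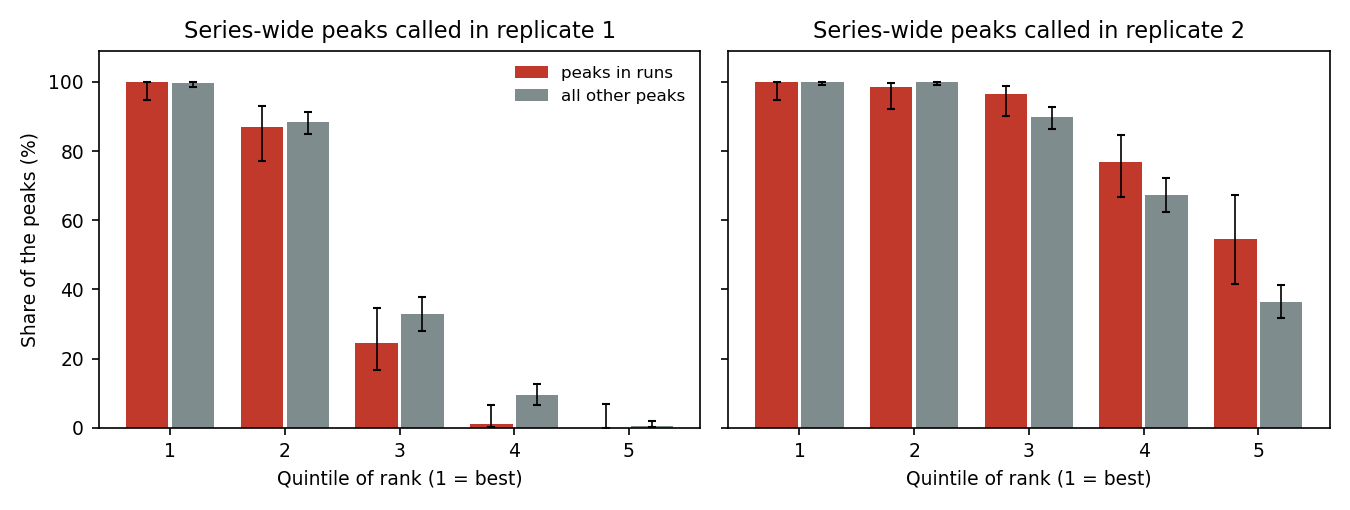
Share of peaks (vertical axis, percent) called in replicate 1 and replicate 2 by quintile of rank (horizontal axis) for peaks in runs and all other peaks, with bars giving 95% Wilson intervals. In quintile 5 replicate 2 called 54.7% of the peaks in runs and 36.5% of the others.

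Whole runs were also compared between lists. Each of the 96 runs held a peak called in replicate 2, and in 60 runs all peaks were called there. In replicate 1 all peaks were called in 17 runs and none in 26, of which 15 lay on V, the chromosome of 33 of the 96 runs. At least 1 peak called in neither replicate was present in 34 runs. Over all series-wide peaks, 79.8% were called in replicate 2, 45.5% in replicate 1 and 17.0% in neither. No count expected from these shares was set beside the counts of runs.

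A run built from the replicate 2 list alone overlapped 70 of the 96 runs, a run built from replicate 1 overlapped 24, and neither overlapped 25. From the side of the replicates, 24 of 27 runs in replicate 1 and 70 of 87 in replicate 2 were overlapped by a series-wide run. Some members shared a broader peak: 8 peaks of replicate 2 each covered 2 members, and no peak of replicate 1 did.

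Runs differed in how much of their rank came from 1 peak. The best peak of a run lay in quintile 1 for 39 runs, quintile 2 for 29, quintile 3 for 17 and quintile 4 for 11. There were 57 runs with no quintile 1 peak, 19 with 1, 12 with 2, 7 with 3 and 1 with 4. In the 59 runs of 3 peaks the best one was in the middle in 18. Of the best 100 peaks in the list, 17 were members, near the 16.5% of members in the whole list.

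Runs with more peaks held a smaller share of top ranked peaks. Quintile 1 peaks made up 26.0% of the members of 3-peak runs (46 of 177), 17.7% in 4-peak runs (17 of 96) and 5.88% in runs of 5 or more (5 of 85). The median gap was 1408, 1333.5 and 850 bp in the same order. Runs of 3 peaks held 36 members on X and runs of 4 held 16, and none of the 13 runs of 5 or more lay on X. Those 13 were 5 on II, 3 on III, 2 on IV and 3 on V.

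In 6 runs every peak was in quintile 1, and 3 of these were on X. They were III:1598920-1604985, IV:2656727-2666074, IV:16397955-16401345, X:2525966-2531834, X:5707758-5714044 and X:8148909-8156866. The run at X:8148909-8156866 was the only one with 4 such peaks. Its ranks were 412, 182, 92 and 3 in the series-wide list, 330, 226, 139 and 4 in replicate 1, and 485, 249, 91 and 2 in replicate 2. All 3 lists placed the peaks in the same order of rank, with the last peak, X:8154165-8156866, the best.

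The run at IV:2656727-2666074 held the peak IV:2664035-2666074, at rank 2 in the series-wide list. Its value of 0 was shared with the members at ranks 3 and 7, so its place before them is chromosome order only. IV:2664035-2666074 ranked 34 in replicate 1 and 7 in replicate 2. Its neighbours ranked 110 and 95 series-wide, 135 and 181 in replicate 1, and 119 and 98 in replicate 2. The best peak in the run was the same in all lists.

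The run at III:1598920-1604985 had ranks of 360, 29 and 35. Replicate 1 gave 419, 128 and 46, and replicate 2 gave 311, 32 and 40. The middle peak, III:1600455-1601836, was the better of the later pair series-wide and in replicate 2 but not in replicate 1. At IV:16397955-16401345 the first peak, IV:16397955-16399517, ranked 21 series-wide, 153 in replicate 1 and 16 in replicate 2, and its neighbours ranked 339 and 219 series-wide.

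Other runs paired a strong peak with weak ones. At X:16207997-16218094 the first peak, X:16207997-16209967, ranked 7 series-wide, 6 in replicate 1 and 8 in replicate 2. The next ranked 1197 and was not called in replicate 1, and the last ranked 569. At V:15185934-15191402 the last of the 4 peaks ranked 68, with 49 and 65 in the replicates, while the first 3 ranked 2013, 961 and 1742. None of those 3 was called in replicate 1, and the first was called in neither replicate.

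The best ranked members on I and II lay in runs whose peaks were all called in both replicates. At I:9319808-9329054 the ranks were 336, 672 and 49, with 379, 827 and 232 in replicate 1 and 387, 715 and 89 in replicate 2. At II:14801060-14804957 the ranks were 517, 533 and 37, with 511, 505 and 42 in replicate 1 and 531, 535 and 55 in replicate 2. In both runs the last peak was the best in every list.

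Most of the runs with the most peaks lacked a top ranked peak: 11 of the 13 runs of 5 or more held none of quintile 1, and their members ranged widely in rank. At III:3099223-3112382 the span of the 13 peaks held 9 peaks in replicate 1 and 12 in replicate 2, where 2 members shared 1 peak. Its last peak ranked best in all 3 lists, at 531, 572 and 538. The weakest peak, at rank 1902, was not called in replicate 1 and ranked 1430 in replicate 2. The spacing of its peak centres varied by 23.1% (SD as a percent of the mean), the lowest among the 13 runs of 5 or more, where the next lowest was 30.1% and the highest 97.1%.

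At IV:1380382-1394566 the 10 peaks spanned 14185 bp, the greatest length of any run. Their series-wide ranks were 1267, 825, 1258, 1471, 1117, 524, 2132, 690, 1349 and 891. Replicate 1 called only those at 524, 690 and 891, at ranks 545, 673 and 943. Replicate 2 called all 10, at ranks 1507, 775, 1144, 1694, 1129, 495, 1729, 729, 1027 and 857. The best peak was the same in all lists, and the replicate 1 calls were 3 of the 4 best ranked peaks.

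At V:7913101-7925076 the 7 peaks ranked 918, 1257, 718, 409, 1073, 1532 and 396. Replicate 1 called those at 718, 409, 1073 and 396, at ranks 820, 551, 924 and 425. Replicate 2 called all 7, at ranks 809, 1532, 788, 391, 987, 1604 and 317. Widths in this run ran from 26 bp to 1667 bp, the latter at V:7919518-7921184.

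At II:1474874-1482760 the 7 peaks ranked 1574, 1191, 593, 1101, 1238, 1013 and 1217. Replicate 1 called 1 of them, II:1477311-1478365, where its best peak ranked 749. Replicate 2 called all 7, at ranks 1827, 1082, 597, 1126, 1588, 1116 and 1246. The peak found in replicate 1 was the best of the run in the series-wide list and in replicate 2.

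In the 3 runs of 6 peaks, replicate 1 called 1 or 2 members of each. At II:10541996-10549431 only the peak at rank 598 was called in replicate 1, at 637, while all 6 were called in replicate 2. At II:1100110-1108002 the ranks were 863, 1653, 778, 1288, 1064 and 907, and replicate 1 called those at 863 and 778, at 801 and 1008. At V:18367271-18377016 the ranks were 1602, 1110, 565, 1555, 1093 and 2008. Those at 1110 and 565 shared a single replicate 2 peak at rank 518, and the first was called in neither replicate.

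**Figure D5:**
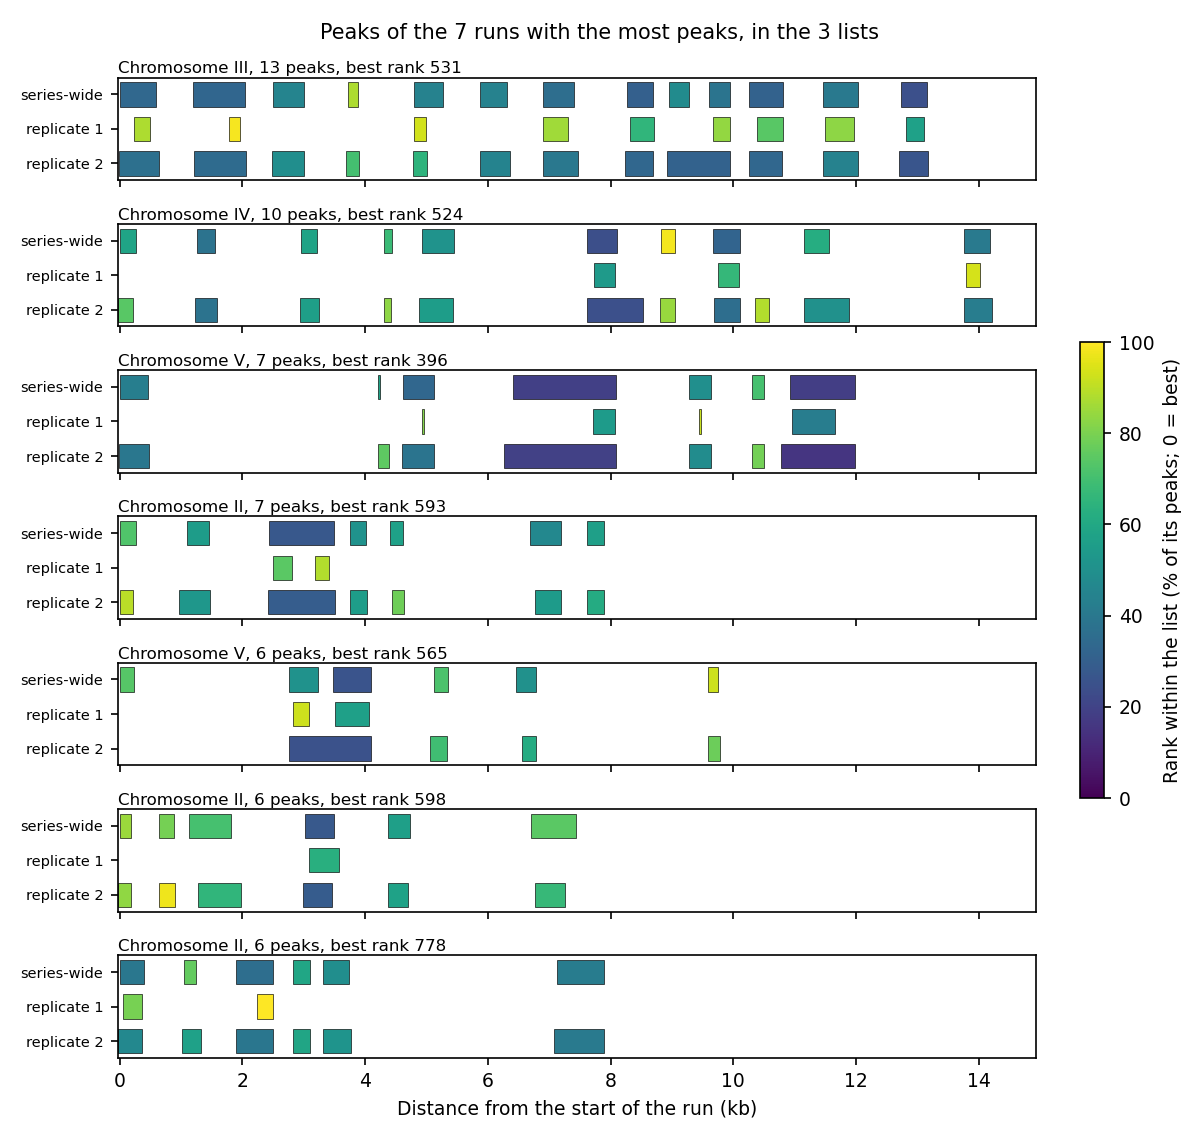
Peaks of the 7 runs with the most peaks (6 to 13 peaks), drawn by distance from the start of the run in kb, for the series-wide list and replicates 1 and 2, with colour giving the rank within each list as a percent of its peaks. At the 10-peak run on IV replicate 1 shows 3 peaks and replicate 2 shows 11.

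Among the 5-peak runs, IV:2799994-2808757 had better ranks than the other 5-peak runs named here. Its peaks ranked 947, 350, 283, 64 and 551. Replicate 1 called all but the first, at 348, 321, 55 and 580, and replicate 2 called all 5, at 1022, 370, 304, 62 and 568. At III:3185325-3192181 the ranks were 1108, 800, 1144, 883 and 611, of which 2 were called in replicate 1. At II:750193-755400 they were 1379, 658, 746, 712 and 1015, of which 2 were called in replicate 1.

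Peaks absent from both replicate lists were of low rank, among members and other peaks alike. Quintiles 3 to 5 held 2, 84 and 240 of the 326 such other peaks, and 1, 18 and 24 of the 43 such members. The best 5 were V:17935643-17936194 at rank 1239, IV:1459277-1460555 at rank 1446, I:11506410-11506783 at rank 1472, III:4752787-4752903 at rank 1494 and V:5780731-5781055 at rank 1504. The peak on IV was 1279 bp wide. In the run at III:4752787-4757251 the ranks were 1494, 1737 and 2139, and only the middle peak was called, in replicate 2 at rank 1888.

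Calls on V and X differed among the other peaks as well as among members. Of the 118 members on V, 27.1% were called in replicate 1 against 37.8% of the other peaks there, a difference of -10.65 points (-19.61 to -0.63). In replicate 2 the shares on V were 82.2% and 77.6%, a difference of 4.56 points (-4.35 to 12.12). Neither replicate called 16.9% of the members on V (20) and 19.6% of its other peaks, a difference of -2.69 points (-10.02 to 6.03). Of the 52 members on X, 73.1% were called in replicate 1 against 63.7% of the other peaks there, a difference of 9.39 points (-4.73 to 20.69). In replicate 2 the shares on X were 90.4% and 87.1%, a difference of 3.28 points (-8.12 to 9.88). Runs on V included strongly ranked ones as well: at V:8495067-8500870 the ranks were 151, 463 and 99, and all 3 peaks were called in both replicates.

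Genes could not be assigned to peaks because the reference gene table is of another genome build, WBcel235, than the peaks, WS220. The table was used only to ask how genes of each class neighbour each other under the same 5000 bp rule, and no gene position was set against a peak. By that rule 159 of 612 tRNA genes (26.0%) lay in 43 runs. Of these genes 61.0% (97) lay on X, in 26 runs, and 6.92% (11) on V. Of all 612 tRNA genes, 276 were on X and 78 on V. The longest run held 9 tRNA genes and was on X.

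For the members the shares were 14.5% on X and 33.0% on V, the opposite order, beside 20.9% and 18.2% of the other peaks. The order among members depended on rank and list. X was above V among quintile 1 members (39.7% and 17.6%) and in runs from the best 50% of the list (24.8% and 13.3%). The other peaks of these sets had the same order, with 42.2% and 10.6%, and 27.9% and 17.4%. X was also above V in runs of replicate 1 (30.3% and 14.1%), whose whole list of 1009 held 287 peaks on X and 158 on V. The median gap between tRNA genes of a run was 503 bp, and 26.7% of those gaps (31 of 116) were shorter than 205 bp, the smallest gap between series-wide peaks. Of the genes for 5S ribosomal RNA, 14 of 16 lay in a single run on V, the chromosome of 15 of the 16.

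Other gene classes gave different patterns. Of 129 small nuclear RNA genes 46 lay in runs, with 47.8% of those on V, 32.6% on IV and none on X. Of all 129, 40 were on V, 41 on IV and only 3 on X. Of 260 microRNA genes 43 lay in runs, with 55.8% on X, where 73 of the 260 lay. Of 346 small nucleolar RNA genes 10 lay in runs. tRNA pseudogenes, a class added after its values were seen, had 103 of 209 in runs, with 67.0% on V (69), 25.2% on III and none on X. Of all 209, 91 were on V, 33 on III and 29 on X. Of the protein-coding genes 95.4% (19052 of 19971) lay in runs by this rule. Whether any class of gene underlies the members was not tested.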

How the data were processed

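ChIP-seq of RPC-1 was measured in 2 ChIP libraries with 2 input libraries, which entered only through the authors' peak calling. The deposited peak lists give a position and 1 value for each peak. Per the file headers the coordinates are on WS220, and their source field names PeakSeq as the caller. The deposited value is a p-value or q-value (the files do not say which), and 0 stands for a value too small to be written, so it was used only to rank peaks. Aligner, filters and the making of the series-wide list: not given in the sources used here. Of the peak numbers in the series-wide list 1 is absent.

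Members and lists were chosen with earlier results of these data known. Shares, medians, gaps and overlaps were computed in pandas 2.3.3 with statsmodels 0.14.6, scipy 1.17.1 and numpy 2.4.6 under Python 3.11.15, and drawn with matplotlib 3.10.9. Overlaps were checked with bedtools 2.31.1. Median intervals are at 95%. The steps were tested on simulated peaks. Regions were named by a rule: the 10 runs with the most peaks, the run with the best member on each chromosome, the 5 best members, the 5 best called in neither replicate, and the 3 gaps on each side of the limit; runs given beside these were chosen after their values were seen. Gene classes came from the WBcel235 table for names, types and neighbours only. Alternatives are reported after the results. Counts are of peaks, and the precision is limited by their number.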

Additional observations from a re-analysis of the deposited data

How the results depend on the processing

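Of 107 alternative values 70 stayed within the limits set for them and 37 moved. The main rule gave 358 peaks in 96 runs. Joining at 2000 bp gave 195 in 52, at 10000 bp 609 in 163, runs of 2 or more peaks 846 in 340, runs of 4 or more 181 in 37, the best 50% of the list 105 in 29, and the replicate 1 list 99 in 27. In that order the share of members on X was 10.3, 19.2, 19.6, 8.84, 24.8 and 30.3%. The other peaks under these settings, the replicate 1 list left out, had 20.8, 20.1, 20.0, 20.9 and 27.9% on X. The share of members on V was 27.2% at 2000 bp against 20.0% of the other peaks, and 26.1% at 10000 bp against 18.5%. With runs of 2 or more it was 22.0% against 19.8%, with intervals (19.3 to 24.9 and 17.8 to 22.0) that overlap. In the best 50% it was 13.3% against 17.4%, and in the replicate 1 list it was 14.1%. The middle part held 14.4% at 2000 bp and 27.3% in the replicate 1 list. The median width was 535 bp in the best 50% and 441 bp in the replicate 1 list, where the median rank percentile was 39.0, against 49.3 in the main list. In the best 50% both replicates called 84.8% of members and 82.7% of the others, and neither called 0% of members (upper bound 3.53%). In the main list the other peaks of quintiles 1 and 2 also had 0% called in neither, and those of quintile 3 had 0.575%. At 2000 bp neither called 8.72% of members, and the share of the others was not computed. Leaving out a replicate put the share called in all remaining replicates at 41.9 to 86.9% of members and 46.2 to 78.4% of the others. The share called in none was then 13.1 to 58.1% of members. With a single replicate left, that share is the remainder of the share called, for members and others alike. The cause of these shifts was not tested. Merging peaks that share a replicate 2 peak, and all alternatives for the share on V, were chosen after seeing the data. No paired analysis was possible because the peak lists give no test and the input libraries have no list of their own. Depth is unknown. Low ranked peaks had the largest caller values and the fewest calls in the replicates, so they are the least certain.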
